A study of Mus musculus with 12 samples.

Results

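The 10 genes described here mark T cells and natural killer (NK) cells: Cd2, Cd3d, Cd3e, Cd3g, Cd4, Cd5, Cd8a, Lck, Gzma and Gzmb. They were found by matching their symbols to the gene name column of the arrays, which holds 27373 names. The 10 genes are covered by 14 of the 41174 transcript probes, with 3 probes for Cd8a, 2 each for Cd3e and Cd4 and 1 for each other gene. The RNA came from whole back skin of male C57BL/6J mice, bought at 8 weeks of age, shaved, and treated daily with 200 µL of 3% MXD, 10% N-CE or VC. MXD is minoxidil, N-CE is a cell extract of the cactus Notocactus ottonis, and VC is the vehicle control of propylene glycol, ethanol and water. Samples were taken at 1W, 2W and 3W of treatment. RNA of 6 mice was pooled per group, which leaves 1 pool for each treatment and week and no spread between mice. Treated RNA and VC RNA of the same week were put together on 2 arrays, once in either order of the Cy3 and Cy5 dyes, which gave 6 comparisons on 12 arrays. All 4 arrays of 1 week lay on the same slide, and slide and week therefore cannot be told apart. MXD and N-CE of a week were set against the same VC pool.

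T cells recognize antigen through a receptor that is held at the cell surface by the CD3 chains. Signals from the receptor pass through the kinase Lck, which the co-receptors CD4 and CD8 bring to the complex. Cytotoxic T cells and NK cells kill their targets with granzymes. Mouse skin holds resident T cells in epidermis and dermis, many of them with the gamma delta receptor, and these cells are a small part of the tissue.

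A log2 fold is treated over VC. Its mean is taken over the 2 arrays of the dye swap, and its SD over the same 2 arrays describes the measurement, not the mice. With a median over genes, the ± is the SD of the medians of the 2 single arrays. These need not lie around the printed median, which is taken over the mean folds. A gene was called up- or down-regulated when both arrays gave a spot P under 0.01 with the same sign and the geometric mean of the folds exceeded 1.5 or fell short of 0.75. The P comes from the error model of the scanner software and describes spots. Each gene was represented by its brightest probe, and a gene entered a comparison when it was well above background in at least 1 channel. Since whole skin was used, fewer cells of a type and less RNA per cell cannot be told apart. Between 57.0% and 69.6% of spots were well above background in a channel, and 0 spots were saturated. Over probes above background in both groups, the arrays of a dye swap correlated with r from -0.17 in N-CE at 2W to 0.71 in MXD at 2W; probes are not independent replicates.

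The probes behind the 4 down-regulated genes reported below are shown to make clear which part of each transcript was measured. They are 60 bases long and printed 5′ to 3′ as on the array, and 3 of them span more genome than their own length, so they cross exon junctions.
Cd3d, mm9 chr9:44794171-44794402, plus strand: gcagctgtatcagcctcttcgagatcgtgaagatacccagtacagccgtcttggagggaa
Cd3g, mm9 chr9:44781716-44782300, minus strand: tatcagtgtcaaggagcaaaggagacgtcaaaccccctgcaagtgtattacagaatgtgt
Cd2, mm9 chr3:101083802-101086981, minus strand: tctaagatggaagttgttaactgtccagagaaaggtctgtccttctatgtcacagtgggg
Gzma, mm9 chr13:113885986-113886045, minus strand: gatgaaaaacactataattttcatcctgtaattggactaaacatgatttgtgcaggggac
Each of the 4 has at least 1 reading frame free of stop codons on the printed strand. The Cd3d and Cd3g probes read genes that lie side by side.

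In MXD at 2W, 3 of the 10 genes were down-regulated, Cd3g, Cd3d and Cd2, and 1 was up-regulated, Cd4. In that comparison 9.86% of all probes were called, 5.82% lower and 4.04% higher. Among probes above background in at least 1 group, as the genes counted are, 14.2% were called, 8.36% lower and 5.79% higher. The median log2 fold of the 10 genes was -0.76 ± 0.06, against 0.05 over all probes above background. Its medians on the single arrays were -0.69 and -0.61. Gzma and Cd8a, among the 10, were above background in VC alone. Over the 8 genes above background in both groups on both arrays, the median was -0.40. After background correction by normexp, which shrinks the ratios of dim probes, the median of the 10 genes was -0.17. In N-CE at 3W, 1 of 10 genes was down-regulated, Gzma, where 0.29% of all probes were called, 0.139% lower, and 0.42% of those above background, 0.201% lower. No gene of the set was called in MXD at 1W, MXD at 3W, N-CE at 1W or N-CE at 2W, where 1.45%, 0.304%, 1.78% and 0.119% of all probes and 2.11%, 0.48%, 2.65% and 0.173% of those above background were called. Probes called higher in N-CE at 1W were 0.292% of all and 0.434% of those above background. Of the 9 genes above background there, 7 were higher than VC on both arrays without a call, and the median of the 9 log2 folds was 0.43 ± 0.09, against 0.02 over all probes. The medians of the single arrays were 0.28 and 0.41, and with normexp the median was 0.21. For the 7 of 9, and for later counts of genes above or below 0, the share of all probes on that side was not determined.

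**Figure D1:**
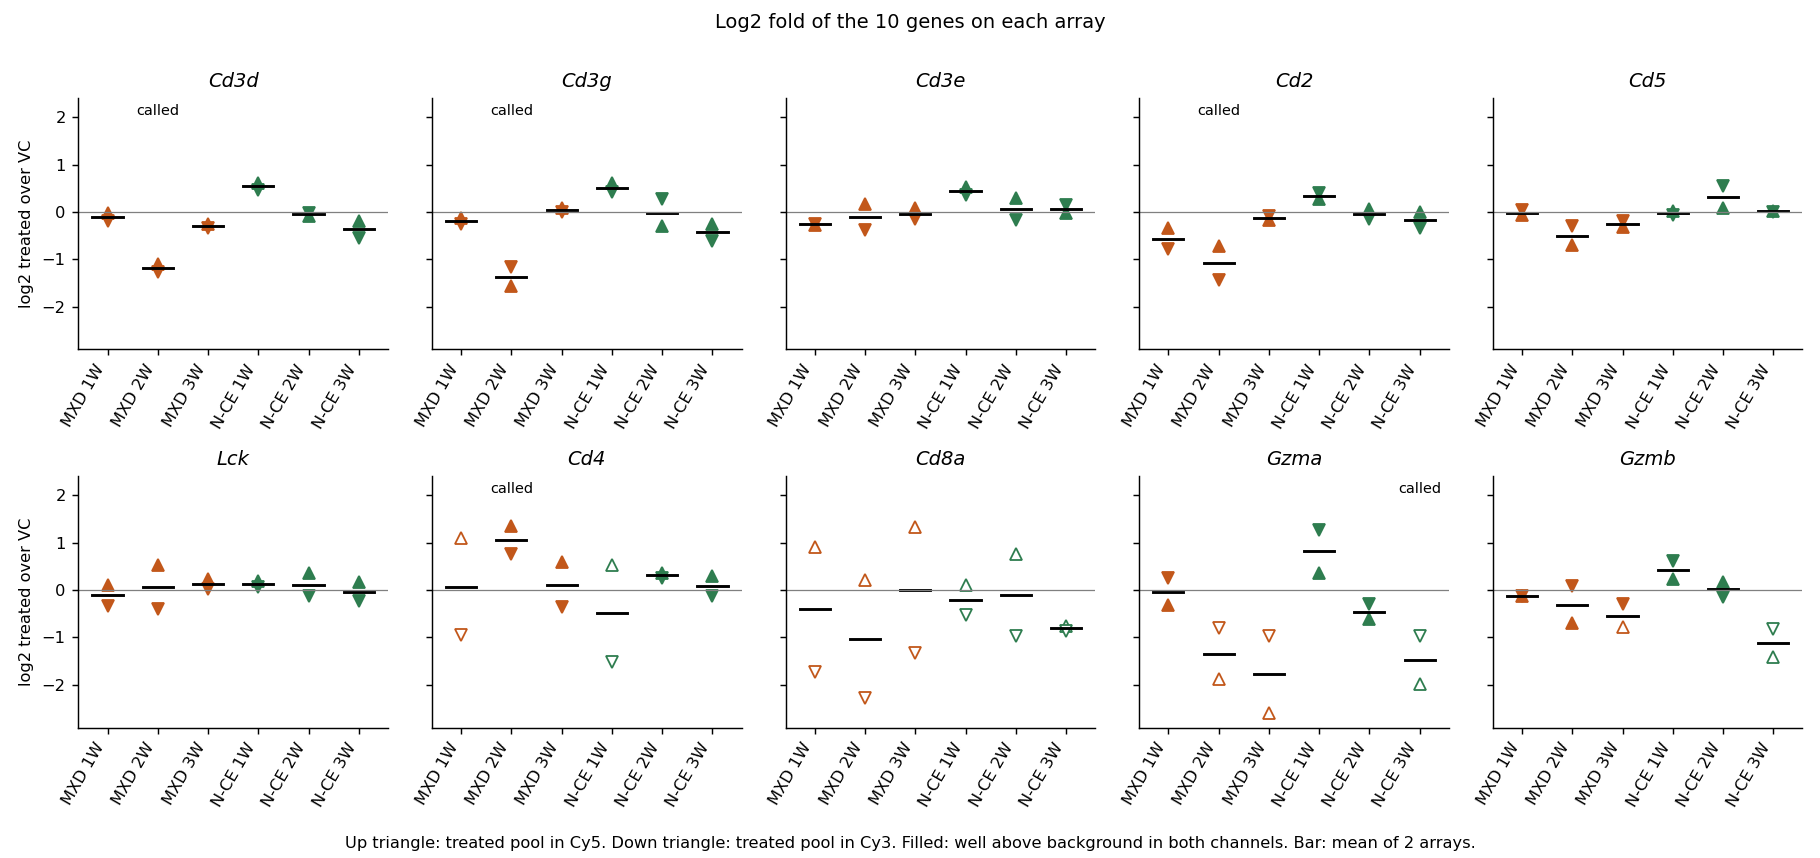
Log2 fold of treated over VC (vertical axis) of each of the 10 genes in the 6 comparisons (horizontal axis), with 1 triangle per array, up for the treated pool in Cy5 and down for Cy3, filled where both channels were well above background, and a bar at the mean of the 2 arrays. Cd3d, Cd3g and Cd2 sit below 0 on both arrays of MXD at 2W, and 7 genes sit above 0 on both arrays of N-CE at 1W.

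The CD3 chains hold the antigen receptor at the surface and carry the motifs that start its signal. Cd3d, which encodes the delta chain, had processed signals of 356 and 294 in the MXD pool at 2W and of 760 and 712 in the VC pool on the same arrays. Both MXD signals of Cd3d lay below both VC signals. Its mean fold was 0.440, a log2 fold of -1.19 ± 0.13. Cd3g, the gamma chain, gave 269 and 244 in the MXD pool against 799 and 547 in VC, and its mean fold was 0.388, or -1.37 ± 0.29 on the log2 scale. The MXD and VC signals of Cd3g did not overlap either. With normexp the log2 folds were -0.93 and -1.05, and both calls held. Cd3e, the epsilon chain, had 254 and 193 in the MXD pool against 225 and 251 in VC. The MXD signal was the higher one on the first array and the lower one on the second, so that Cd3e had a mean log2 fold of -0.10 ± 0.39 with no shared direction. The second Cd3e probe was near background, with mean signals of 9.81 in MXD and 29.1 in VC at 2W, and adds no usable value.

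In the other weeks of MXD the CD3 chains stayed closer to VC. At 1W the log2 folds were -0.11 ± 0.12 for Cd3d, -0.19 ± 0.09 for Cd3g and -0.26 ± 0.02 for Cd3e, all below 0 on both arrays. At 3W they were -0.30 ± 0.06, 0.04 ± 0.06 and -0.03 ± 0.17.

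In N-CE at 1W, Cd3d had signals of 809 and 849 in the treated pool and 526 and 618 in VC, so both N-CE values lay above both VC values. Its log2 fold was 0.54 ± 0.12. Cd3g gave 618 and 577 against 406 and 433, with a log2 fold of 0.51 ± 0.13 and again no overlap. For Cd3e the signals were 278 and 384 against 192 and 298, and the log2 fold was 0.45 ± 0.12. For all 3 chains the spot P on the second array exceeded the threshold, with 0.0285 for Cd3d, 0.0465 for Cd3g and 0.0818 for Cd3e. On the first array the spot P of Cd3e exceeded the threshold too, with 0.0127. The means of Cd3d, Cd3g and Cd3e stayed under the 1.5-fold limit. At 2W the log2 folds in N-CE were -0.05 ± 0.05, -0.01 ± 0.41 and 0.06 ± 0.32, against the same VC pool from which MXD differed in Cd3d and Cd3g. At 3W they were -0.37 ± 0.24 for Cd3d, -0.43 ± 0.26 for Cd3g and 0.06 ± 0.11 for Cd3e.

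**Figure D2:**
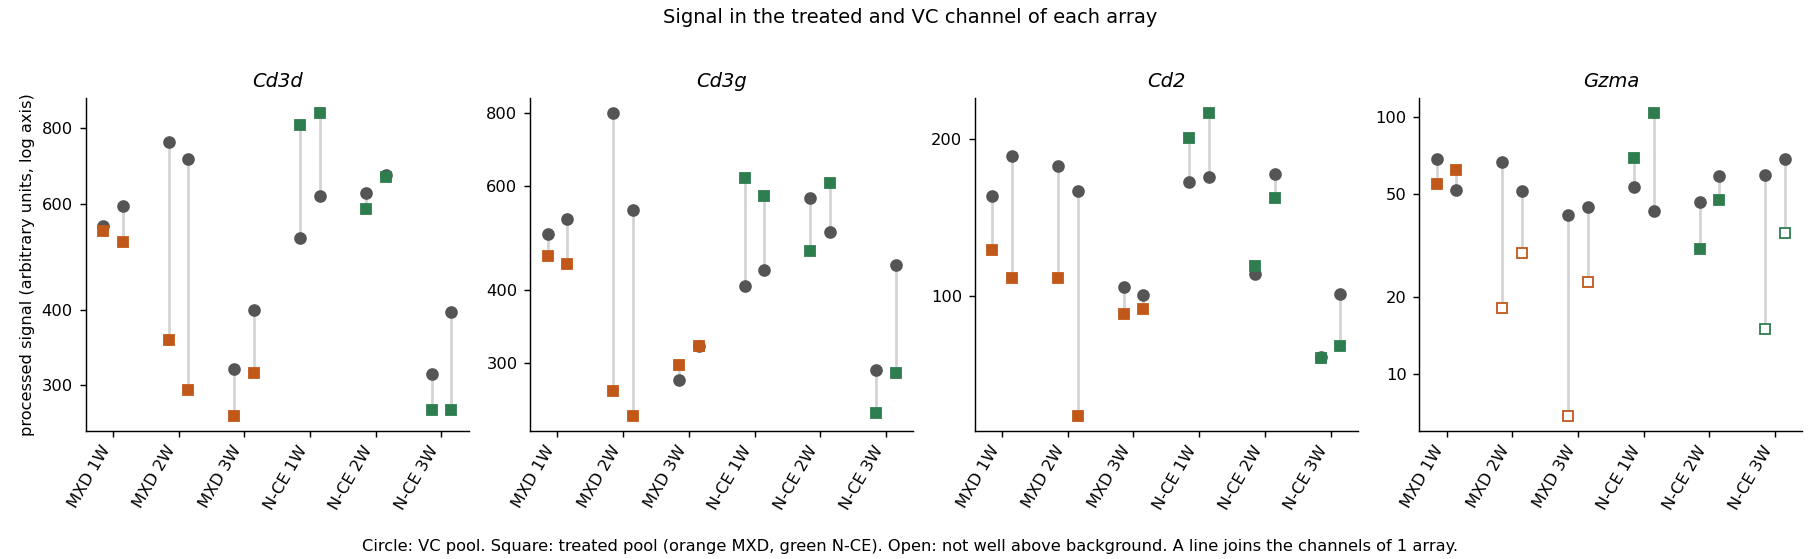
Processed signal (vertical axis, arbitrary units, log scale) of Cd3d, Cd3g, Cd2 and Gzma in both channels of each array, by comparison; circles are the VC pool, squares the treated pool, open symbols are not well above background, and a line joins the channels of 1 array. In MXD at 2W the Cd3d squares are at 356 and 294 and the circles at 760 and 712; the Gzma squares are open at MXD 2W, MXD 3W and N-CE 3W.

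The transcription starts of Cd3g and Cd3d in the promoter table are 1355 bases apart and point away from each other on GRCm38.p6, where Cd3g is at chr9:44969572-44980431 and Cd3d at chr9:44981769-44987052. Cd3e lies on the same chromosome at chr9:44998735-45009663. The 250 bases before each start are shown for the pair that moved together, from RefSeq on GRCm38.p6 and in the direction of the gene, with the E-box CACCTG or its complement CAGGTG in capitals.
Cd3g, chr9:44980432-44980681, minus strand: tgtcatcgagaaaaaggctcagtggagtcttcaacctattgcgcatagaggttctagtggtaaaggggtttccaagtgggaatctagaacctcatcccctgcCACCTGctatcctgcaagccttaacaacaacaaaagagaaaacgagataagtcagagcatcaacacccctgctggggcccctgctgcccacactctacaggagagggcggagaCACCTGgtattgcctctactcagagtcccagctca
Cd3d, chr9:44981536-44981785, plus strand: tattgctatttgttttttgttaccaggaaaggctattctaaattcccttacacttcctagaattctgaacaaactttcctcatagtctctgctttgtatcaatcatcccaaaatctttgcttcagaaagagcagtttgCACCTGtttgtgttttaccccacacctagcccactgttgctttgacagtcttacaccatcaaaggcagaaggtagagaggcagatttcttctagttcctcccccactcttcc
Cd3g holds this motif 2 times and Cd3d 1 time. It occurs in 17.2% of the 32851 promoter windows of the same length, and in 5 of the 9 windows listed for 8 of the 10 genes, those of Cd3d, Cd3g, Cd5, Gzma and 1 of 2 for Lck. A match describes letters in these windows and no binding.

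Cd2 is an adhesion receptor of T cells and NK cells. At 2W it had signals of 108 and 59.0 in the MXD pool against 177 and 159 in VC. Both MXD values lay below both VC values. The mean fold was 0.476, a log2 fold of -1.07 ± 0.51, and -0.45 with normexp, where Cd2 was still called. At 1W Cd2 had 122 and 108 in the MXD pool against 155 and 185 in VC, a log2 fold of -0.56 ± 0.31 that passed the P threshold on the second array alone. In N-CE at 1W the signals were 200 and 224 against 165 and 169, and the log2 fold was 0.34 ± 0.09. In the other comparisons the mean of Cd2 was between -0.17 and -0.05.

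Cd5 is a surface receptor that dampens signals of the antigen receptor. Its signals in MXD at 2W were 173 and 153 against 279 and 189 in VC, which did not overlap. Its log2 fold was -0.50 ± 0.27, with a P under the threshold on the first array alone. Its other means lay between -0.25 in MXD at 3W and 0.31 in N-CE at 2W. Lck, the kinase next to the receptor, had 559 and 317 in the MXD pool at 2W against 390 and 420 in VC. The first array put MXD above VC and the second below it, and the log2 fold was 0.06 ± 0.66. Lck stayed between -0.11 and 0.12 in all 6 comparisons. The fold of Lck was higher on the array with the treated pool in Cy5 than on its dye swap in 6 of 6 comparisons, by 0.43 on average on the log2 scale.

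The co-receptors were the least well measured. Cd4, which helper T cells carry, is read by 2 probes. The brighter, printed 10 times at mm9 chr6:124817706-124817765, gave mean signals of 348 and 166 in the MXD pool at 2W and 136 and 98.4 in VC. All 10 copies were above 0 on both arrays, and the log2 fold was 1.06 ± 0.43, or 0.55 with normexp, where the call was lost. The other Cd4 probe, at mm9 chr6:124815401-124815459, stayed near background with mean signals of 6.45 and 9.36 in the same comparison, and with both probes averaged Cd4 was not called. The brighter probe also varied between arrays of 1 RNA pool. In the VC pool of 2W it read 98.4 to 571 over 4 arrays, a ratio of 5.80, while Cd3d read 625 to 760 there. At 1W it was at 6.69 to 20.0 in VC. Its fold was higher with the treated pool in Cy5 in 6 of 6 comparisons. The part of these array differences in the Cd4 call was not tested.

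Cd8a, which cytotoxic T cells carry, was at or near background throughout. The brightest of its 3 probes had mean signals between 9.72 and 27.5 over the pools of the 6 comparisons, and the arrays of a dye swap disagreed in sign in 5 of 6. In MXD at 3W no channel was well above background. At this signal no difference in Cd8a was detectable.

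The granzymes are proteases that cytotoxic T cells and NK cells release into target cells. Gzma had signals of 15.01 and 35.3 in the N-CE pool at 3W and of 59.4 and 68.7 in VC. The N-CE pool was not well above background on either array, so the size of the fall is not a measured fold. By normalized levels, Gzma was 1.40-fold lower than VC as a mean of the 2 arrays. Such a figure compares normalized single-channel signals, with each pool read once in each dye. A dim pool is set no lower than the faintest level well above background. The figure is no bound for single arrays, where the normexp log2 folds of Gzma were -0.67 and -0.30. In MXD the treated pool was likewise not well above background at 2W and 3W, with signals of 18.1 and 29.5 against 66.8 and 51.7 in VC at 2W and of 6.89 and 22.9 against 41.5 and 44.8 at 3W. By the same normalized levels, Gzma in MXD was 1.12-fold lower at 2W and 1.17-fold lower at 3W. All these MXD values lay below the VC values, but the P of the second array missed the threshold with 0.101 at 2W and 0.0481 at 3W.

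Gzma signals in N-CE at 1W were 69.1 and 104 in the treated pool and 53.6 and 43.2 in VC, with no overlap. The log2 fold was 0.82 ± 0.63, and the second array alone had a P under the threshold. In MXD at 1W the log2 fold was -0.03 ± 0.41, and in N-CE at 2W it was -0.46 ± 0.22. The fold of Gzma was lower with the treated pool in Cy5 in 6 of 6 comparisons, by 0.92 on average. Gzmb had log2 folds of -0.13 ± 0.00, -0.31 ± 0.55 and -0.54 ± 0.34 in MXD and of 0.43 ± 0.27 and 0.02 ± 0.22 in N-CE at 1W and 2W. At 3W the N-CE pool was not well above background, with 12.7 and 24.5 against 33.5 and 43.2 in VC. Gzmb was 1.11-fold lower there by normalized levels, without a call.

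Levels in the 9 pools were compared after quantile normalization of the mean intensity of each array. Cd3d was highest in N-CE at 1W, at 9.36 ± 0.06 on the log2 scale, followed by VC at 1W with 8.88 ± 0.09. It was lowest in MXD at 2W, at 7.82 ± 0.01, and next lowest in N-CE at 3W, at 7.98 ± 0.20. The arrays of the highest and of the lowest pool did not overlap with those of their neighbours in the order, while VC at 1W, VC at 2W, MXD at 1W and N-CE at 2W did. Cd3g had the same ends, with 8.84 ± 0.16 in N-CE at 1W and 7.44 ± 0.13 in MXD at 2W, and so had Cd2, with 7.71 ± 0.01 and 6.67 ± 0.10. Gzma was also highest in N-CE at 1W, at 6.97 ± 0.12, but overlapped there with the next pool. Its 3 lowest levels, in N-CE at 3W, MXD at 2W and MXD at 3W, were not well above background and have no order. The VC pools were lower in Cd3d at 3W than at 1W, with 8.36 ± 0.12 against 8.88 ± 0.09, a difference in which slide and week cannot be told apart. Within a week, the VC level of a gene on the MXD arrays differed from that on the N-CE arrays by at most 0.31 for the genes other than Cd4 and by up to 0.90 for Cd4.

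**Figure D3:**
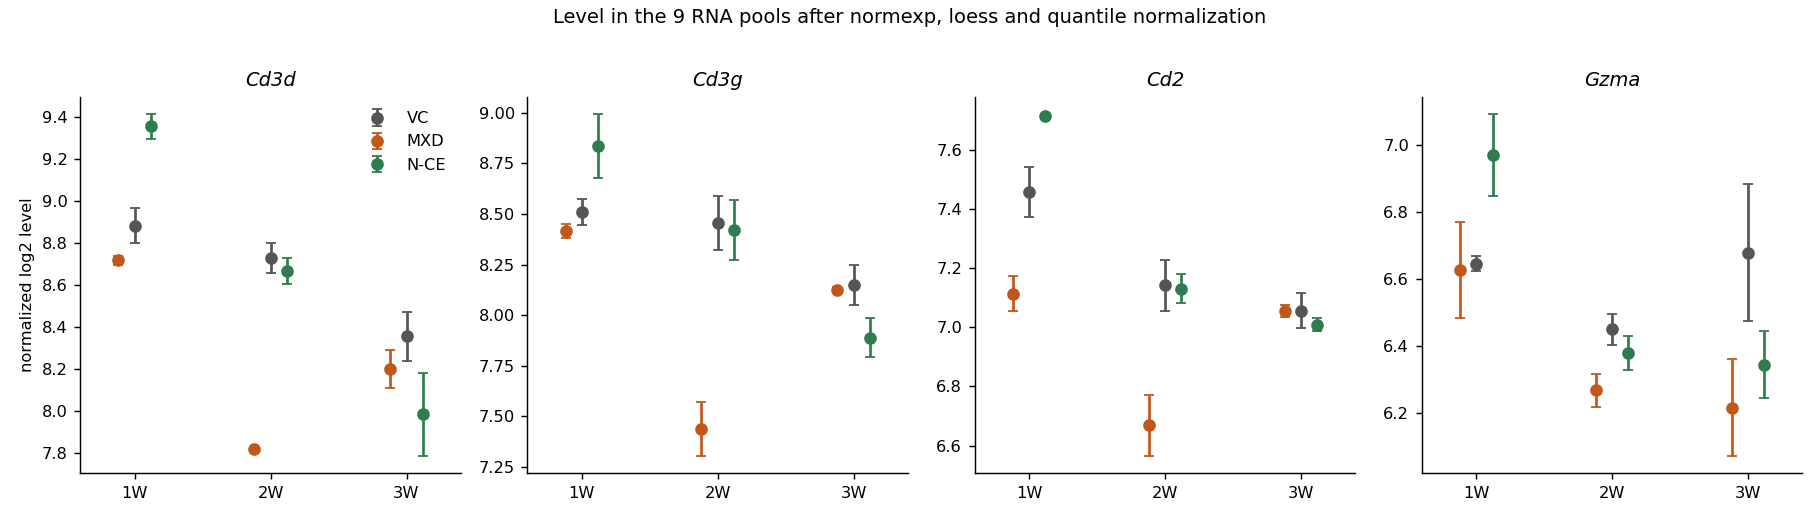
Normalized log2 level (vertical axis) of Cd3d, Cd3g, Cd2 and Gzma in the VC, MXD and N-CE pools at 1W, 2W and 3W (horizontal axis); points are means and bars the SD over 4 arrays for VC and 2 for each treated pool. Cd3d runs from 7.82 in MXD at 2W to 9.36 in N-CE at 1W, and weeks were on separate slides.

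The treatments were also tested over the weeks, with limma on the 3 weekly folds of each treatment standing in for replicates. None of the 10 genes passed a Benjamini-Hochberg adjusted p of 0.05 in MXD, in N-CE or between them, and neither did any of the 40820 probes, so that 0% were called. Without adjustment, 10.3% of probes in MXD, 2.48% in N-CE and 3.38% between the treatments had a p under 0.05. Among the 10 genes that was the case for Cd2 in MXD, with a mean log2 fold of -0.59 (SE 0.20), an unadjusted limma p of 0.0334 and an adjusted limma p of 0.479. Cd2 was below VC in 6 of 6 MXD arrays, which are the dye swaps of only 3 treated pools. With normexp its log2 fold was above 0 on the first array of MXD at 3W, at 0.057. The mean fold over weeks in MXD was -0.53 (SE 0.27) for Cd3d and -0.50 (SE 0.33) for Cd3g, and in N-CE 0.04 (SE 0.27) and 0.02 (SE 0.33). The difference of MXD from N-CE for Cd3d was -0.57 (SE 0.38), with an adjusted limma p of 0.835.

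Other genes of the same cells were taken from lists chosen for their roles, with earlier results of these data known. Of 21 measured genes of T cell receptor signalling, 6 were down-regulated in MXD at 2W and 1 was up-regulated, with a median log2 fold of -0.62 ± 0.20, or -0.24 with normexp. Cd247, which encodes the CD3 zeta chain, fell by 1.35 on the log2 scale, and Trat1, an adaptor of the receptor complex, fell by 1.21. The 1 up-regulated gene was Nfatc2, a transcription factor downstream of the receptor, at 0.92 ± 0.20; it was singled out after its value was seen. Of 22 measured in N-CE at 1W, 18 were above 0 and 0 were called, with a median of 0.25 ± 0.03, or 0.10 with normexp.

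Of 16 measured cytotoxic and NK cell genes, 8 were down-regulated in MXD at 2W, 0 were up-regulated and all 16 were below 0, with a median of -0.99 ± 0.18, or -0.45 with normexp. Klrd1, the CD94 chain of NK receptors, fell by 1.51, from a mean VC signal of 695 to 243. Klrc1, its NKG2A partner, was not well above background in the MXD pool, so the size of its fall is not a measured fold. By normalized levels Klrc1 was 1.18-fold lower there. Of 18 measured in N-CE at 1W, 3 were up-regulated and 16 were above 0, with a median of 0.40 ± 0.01, or 0.16 with normexp. These included Klra8, an NK receptor of the Ly49 family, at 0.96 ± 0.11, and Klrc1 at 0.96 ± 0.02. This value of Klrc1 and its 1.18-fold figure in MXD are on different scales. With normexp Klrc1 had a log2 fold of -0.29 in MXD at 2W and of 0.16 in N-CE at 1W. At 3W in N-CE 16 of 18 were below 0 with 0 called, at a median of -0.25 ± 0.02.

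Of 17 listed gamma delta T cell genes, 6 were found on the arrays and 4 were measured in MXD at 2W, with 1 above 0. The median was -0.94 ± 0.00, or -0.33 with normexp. Among the 4, 2 were down-regulated, Trgv2, a variable gene of the gamma chain, at -1.07 ± 0.27 and Cd163l1 at -0.82 ± 0.27. In N-CE at 1W the median of 4 measured was 0.22 ± 0.08, or 0.14 with normexp, with 1 below 0. Cd163l1 rose there, at 1.09 ± 0.01. Of 15 transcription factors and cytokine receptors of lymphocytes, 5 were down-regulated and 1 up-regulated in MXD at 2W, with a median of -0.66 ± 0.22, or -0.30 with normexp. Il18r1, a receptor chain for interleukin 18, fell by 1.26. The up-regulated gene was Tcf7, a transcription factor of the Wnt pathway and of T cells, with mean signals of 1243 in MXD and 600.2 in VC; it too was singled out after its value was seen. In this list N-CE at 1W gave 0 calls and a median of 0.26 ± 0.03, or 0.078 with normexp.

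Of 16 T cell chemokines and homing receptors, 6 were down-regulated and all were below 0 in MXD at 2W, with a median of -0.72 ± 0.00, or -0.55 with normexp. Ccl17, which draws T cells to skin, fell by 1.81, and Cxcl9, a chemokine induced by interferon gamma, fell by 1.16. Cxcl9 was already down-regulated in MXD at 1W, at -0.78 ± 0.04. Ccl5, which activated T cells and NK cells make, rose in N-CE at 1W, at 1.03 ± 0.03, and fell at 3W in both treatments, at -0.84 ± 0.16 in N-CE and -0.73 ± 0.03 in MXD. Of the interferon gamma response genes, 9 of 19 were up-regulated and all 19 above 0 in N-CE at 1W, with Ido1 at 1.41 ± 0.03 and Gbp4 at 1.23 ± 0.31. In MXD the same list had 3 of 19 down-regulated at 1W and 13 of 18 at 2W, where Iigp1, an interferon-induced GTPase, fell by 1.38 and Gbp3 fell by 1.36.

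**Figure D4:**
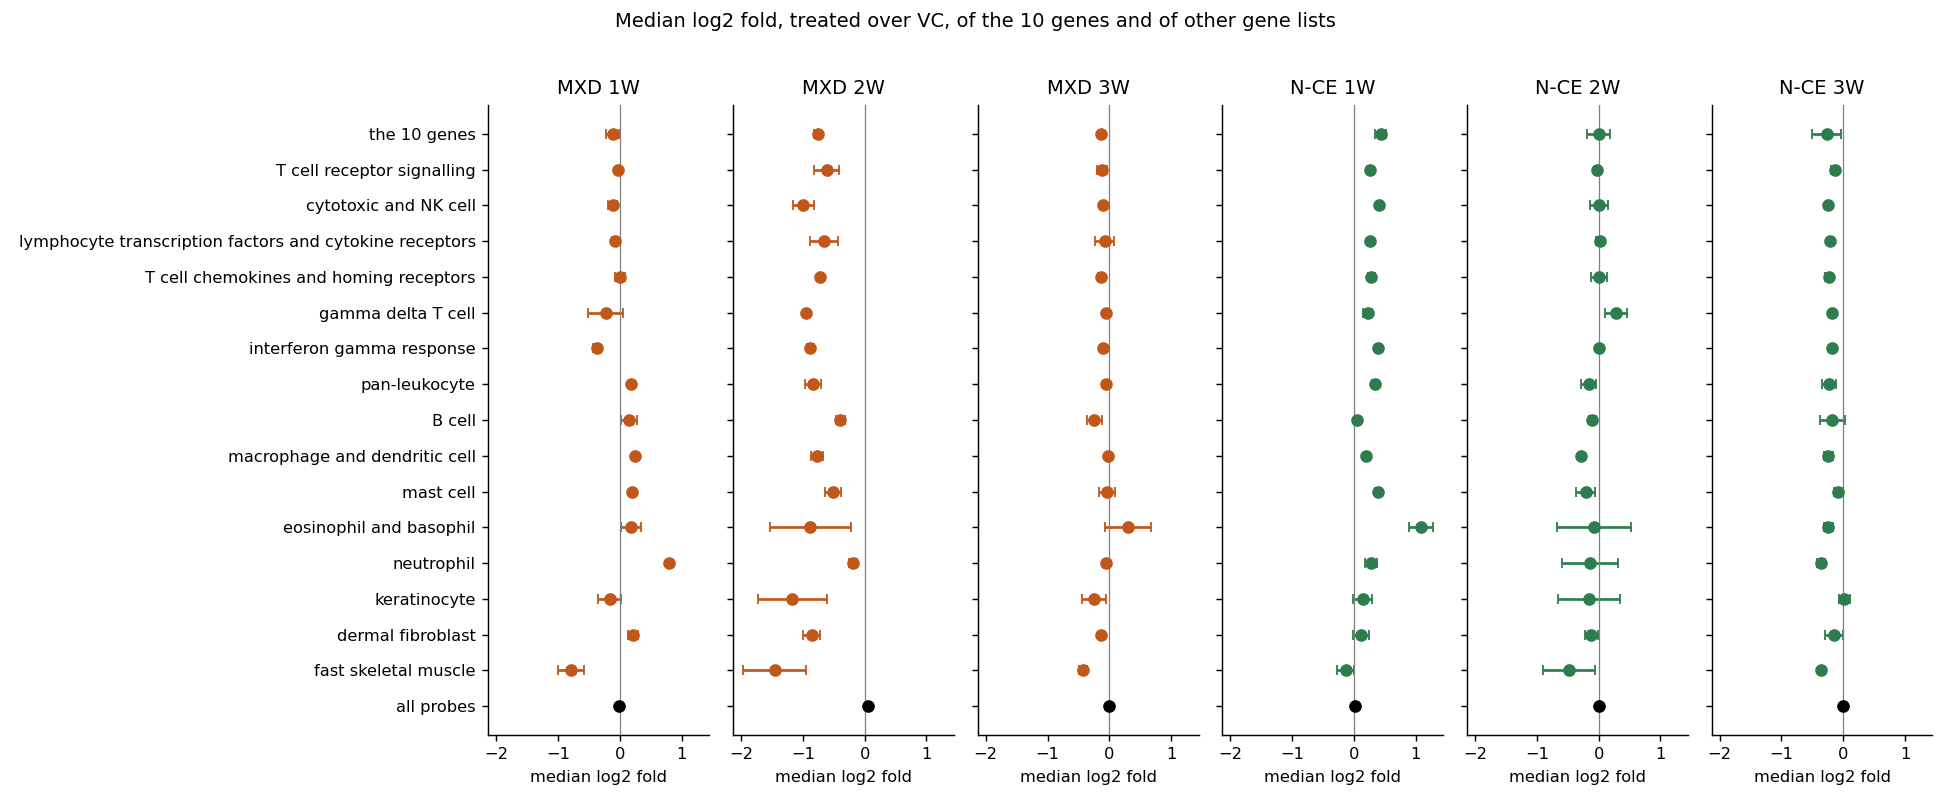
Median log2 fold (horizontal axis, points) of the 10 genes, of 15 other gene lists and of all probes above background in each of the 6 comparisons; bars are the SD of the medians of the 2 arrays. In MXD at 2W the lists lie between -1.46 for muscle and -0.18 for neutrophils while all probes are at 0.05, and in N-CE at 1W the 10 genes are at 0.43 and the B cell list at 0.05.

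The lists of other cells also had medians below 0 in MXD at 2W. Of 10 pan-leukocyte genes 6 were down-regulated and all were below 0, with a median of -0.83 ± 0.13; Ptprc, the common leukocyte antigen CD45, fell by 1.05 and Cd53 fell by 0.99. Their summed signal was 11848 to 15382 in MXD and 21359 to 25836 in VC. Of 14 macrophage and dendritic cell genes 8 were down-regulated, where Cd163 fell by 1.08 and Cd207, the Langerhans cell marker, fell by 1.01. The summed signal of that list was 47020 to 67340 against 80950 to 123834. The mast cell list had a median of -0.52 ± 0.13, and 2 of 8 were down-regulated, where Cma1 fell by 0.91, and 1, Kit, was up-regulated at 1.18 ± 0.53. Of the B cell genes measured, 0 of 6 were called, with a median of -0.39 ± 0.07, or -0.15 with normexp. Of the eosinophil and basophil genes, 1 of 3 was down-regulated, Ear1, which fell by 0.88. The neutrophil list had a median of -0.18 ± 0.07, or -0.038 with normexp, and 1 of 6, S100a8, was up-regulated at 0.96 ± 0.10. Cells that are no leukocytes had lower markers too. Of 5 dermal fibroblast genes 3 were down-regulated with a median of -0.86 ± 0.13, of 5 keratinocyte genes 3 with -1.17 ± 0.56 and of 5 fast skeletal muscle genes 5 with -1.46 ± 0.51. Lum and Dcn, proteoglycans of the dermis, fell by 1.13 and fell by 0.98, Krt10 and Krt1 of differentiated keratinocytes had -1.43 ± 0.39 and -1.30 ± 0.93, and Myh1 and Acta1 of muscle had -1.55 ± 0.21 and -1.46 ± 0.68. With normexp the 10 T cell and NK cell genes had a median of -0.17 in MXD at 2W. The normexp medians were -0.81 for pan-leukocyte genes and -0.72 for macrophages and dendritic cells. They were -0.45 for mast cells and -0.18 for eosinophils and basophils. Fibroblast, keratinocyte and muscle genes kept -0.86, -1.15 and -1.44. The part of these cell types in the values of the T cell genes was not tested.

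The pan-leukocyte genes in N-CE at 1W were all above 0, with a median of 0.34 ± 0.05 and 0 of 10 called, and so were all 14 macrophage and dendritic cell genes, with 0.20 ± 0.02. With normexp the medians of these lists were 0.25 and 0.14, and that of the 10 T cell and NK cell genes was 0.21. The summed signals of these lists were 23254 to 23416 against 17876 to 18768 and 80393 to 80528 against 62532 to 72219. The mast cell list had a median of 0.39 ± 0.05, or 0.20 with normexp, with 7 of 8 above 0 and 0 called. The B cell list had a median of 0.05 ± 0.02, or -0.03 with normexp, with 3 of 5 above 0 and 0 called. Fibroblast, keratinocyte and muscle genes had medians of 0.12 ± 0.13, 0.14 ± 0.16 and -0.14 ± 0.13 there, with 0 called. Neutrophil genes had 1 of 5 called, S100a9 at 1.09 ± 0.03. Prg2, an eosinophil granule gene, was up-regulated and 1.29-fold higher by normalized levels, with VC not well above background. In MXD at 1W the pan-leukocyte median was 0.18 ± 0.00 and that of macrophages and dendritic cells 0.25 ± 0.04, while the 10 genes were at -0.12 ± 0.11; 4 of 8 neutrophil genes were up-regulated, with S100a8 at 2.89 ± 0.00 and S100a9 at 2.51 ± 0.14. In the same comparison 4 of 5 muscle genes were down-regulated, with Myh4 at -1.10 ± 0.24 and Ckm at -1.03 ± 0.28, and 1 of 8 mast cell genes was up-regulated, Hdc at 0.76 ± 0.16. Of the interferon gamma response genes, Gbp6 fell by 1.23. Gbp2b was not well above background in the MXD pool and was 1.29-fold lower by normalized levels.

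Few genes of these lists were called in the other comparisons. At 3W, Igj, which encodes the joining chain of antibodies, fell in both treatments, with -0.94 ± 0.20 in MXD and -0.98 ± 0.01 in N-CE. Cd53 fell in N-CE at 3W, with -0.64 ± 0.05. Myh1 was down-regulated in MXD at 3W, with -0.57 ± 0.01, and in N-CE at 2W, with -0.67 ± 0.11. The lists of T cell receptor signalling, cytotoxic and NK cell genes and lymphocyte transcription factors had 0 calls in MXD at 1W, MXD at 3W, N-CE at 2W and N-CE at 3W.

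The 6 genes other than Gzma that were above background in at least 1 channel of every array, Cd2, Cd3d, Cd3e, Cd3g, Cd5 and Lck, had a mean log2 fold of -0.21, -0.69 and -0.09 in MXD at 1W, 2W and 3W and of 0.32, 0.06 and -0.15 in N-CE. With Gzma added, the means at 3W were -0.33 in MXD and -0.34 in N-CE, but the Gzma folds there are against pools not well above background. Over the 6 comparisons, without Gzma, Cd2 followed the mean of the other genes with r = 0.96, Cd3d with 0.94 and Cd3g with 0.93, while Lck had 0.32. Among 5890 other probes, the search for the profile most like the mean of the genes gave no stable order. With Gzma in the mean, C1qtnf3 came first with r = 0.997. Without Gzma its r was 0.948, at place 527, and Yipf7 (0.997), Tcaim (0.997) and Phkb (0.995) came first. None of the 10 most alike probes was shared, 0 of 10, between the searches. The 6 points share slides and VC pools, and the values describe likeness alone.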

How the data were processed

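RNA of 6 pooled mice per group was compared on 2-colour Agilent arrays. Per the file headers, the authors extracted the scans with Feature Extraction 12.0.3.1 (the submitters' processing notes name 11.0.1.1). The deposited log10 ratio of red over green, its p-value from the software's error model and the processed signal intensity are background-subtracted and dye-normalized by that software, as the authors deposited them. The deposited value table equals the log10 of the processed signal ratio to within 4.99999e-09.

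Of 45018 spots, 43379 transcript spots gave 41174 probes after averaging copies without outlier-flagged spots. All ratios were given the direction treated over VC, and the 2 arrays of a dye swap were averaged. The call needed a p-value under 0.01 on both arrays and a fold above 1.5 or below 0.75, over all probes. Mean intensity was background-corrected by normexp (offset 50), loess- and quantile-normalized for levels and as an alternative. limma 3.58.1 (R 4.3.3) tested the 3 weekly folds across all probes with Benjamini-Hochberg adjustment, treating weeks as replicates. Tables were made with Python 3.11.15, numpy 2.4.6 and pandas 2.3.3, and the scripts were tested on simulated data. Gene names are those of the array; 27816 probes have an accession in the RefSeq table.

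The 10 genes and the 15 other lists were chosen with earlier results of these data known. Named were all 10 genes, the 2 called genes with the largest change per list and comparison, the ends of each order of levels, and the first of the 10 probes most like the mean profile with an SD of at least 0.3 over the comparisons; some genes that this rule names are not reported here. The number of pools limits the precision.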

Additional observations from a re-analysis of the deposited data

Results flagged for a closer look

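In 13 of 73 pairs of comparisons examined for the 10 genes, every array of the first lay on the other side of 0 from every array of the second. The share of such pairs over all probes was not determined, so the count gives no result about the 10 genes. None of these differences was tested, the values are differences of mean log2 folds, and pairs within a week share a VC pool.

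Between MXD and N-CE at 1W, Cd2 differed by -0.90, Cd3d by -0.65, Cd3e by -0.71, Cd3g by -0.70 and Gzmb by -0.56, with MXD below VC and N-CE above it. Cd5 lay below VC in MXD and above it in N-CE at 2W, a difference of -0.81, and at 3W, a difference of -0.27. Within N-CE, 1W was above VC and a later week below it. That difference was 0.51 for Cd2 from 3W, 0.59 for Cd3d from 2W and 0.91 from 3W, 0.94 for Cd3g from 3W, and 1.27 for Gzma from 2W and 2.29 from 3W. The N-CE pool at 3W was not well above background for Gzma, so the size of that last value is not a measured fold. Of 25 sets of 4 VC arrays, 0 held an array set apart from the others by Dixon's criterion. That includes Cd4 in VC at 2W, with signals from 98.4 to 571, so the criterion does not show that the arrays agreed.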

How the results depend on the processing

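Cd2, Cd3d and Cd3g were called lower in MXD at 2W under every alternative run. The alternatives with normexp, with the deposited values and with probe means kept the spot P of the software. In these, only the fold and its sign were examined anew. Without the P criterion the numbers of the 10 genes called were 1, 7 and 2 in MXD at 1W, 2W and 3W and 1, 1 and 4 in N-CE. Requiring signal above background in both groups on both arrays left 0 called in N-CE at 3W, where Gzma was lost. With 1 array of a swap left out, called genes ranged from 0 to 1 in MXD at 1W (Cd2), 5 to 6 at 2W and 0 to 1 at 3W (Gzma), and from 1 to 2 in N-CE at 1W (Gzma, or Cd3d and Cd3g) and 1 to 2 at 3W (Cd3g added). The median log2 fold then ranged from -0.25 to -0.096, from -0.69 to -0.61 and from -0.20 to -0.17 in MXD, and for N-CE from 0.28 to 0.41 (1W), from -0.13 to 0.13 (2W) and from -0.44 to -0.10 (3W), so that the sign at 2W depended on the array. With normexp the MXD median became -0.17 for 2W and -0.0024 for 3W, and the N-CE median became 0.21 for 1W. With both groups above background it became -0.40 and -0.032 for MXD at 2W and 3W and -0.032 in N-CE at 3W, and with no filter on dim probes it was -0.082 in MXD at 3W. With dim genes at the fold from normalized levels, an alternative chosen after seeing the data, it was -0.24 in MXD at 2W. The profile without Gzma was also chosen after seeing the data. The call of Cd4 in MXD at 2W was lost with normexp (0.55) and with the mean over probes (0.28). Of the values for single genes under the alternatives, 337 kept their side of the threshold, 9 gained a call and 2 lost it (both Cd4, above). No called value changed sign. Sign changes of values without a call were not counted, such as Cd8a in MXD at 1W, from -0.40 to 0.086 with normexp. No limma result passed the adjusted threshold under any alternative. Apart from settings that use fewer genes or arrays, the cause was not tested. With the slide as a random block, which links MXD and N-CE of a week, limma called 0 of the 10 genes in each contrast. Dim signals limit Cd8a, Gzma and Gzmb most.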
